A study of Homo sapiens with 64 samples.

Results

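The regions described here are 5 windows of the human genome, on chromosomes 1, 6, 7, 11 and 19, in which the peaks of several antibodies lay close together. A peak was taken as a member when it lay within chr1:121350000-121490000, chr6:58770000-58785000, chr7:61960000-61985000, chr11:51570000-51600000 or chr19:27730000-27745000 of hg19, the build that the submitters' processing notes name. The members were thus chosen by measured peak positions, with bounds set around peaks of the same lists. The presence of peaks in the windows and their return across lists are therefore a description of what was chosen. Members numbered 310 of the 2442 peaks of the series (12.7%), or 14.2% of the 2178 peaks outside the mitochondrial genome. Of the 24 peak lists, 19 held members and 5 held none.

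The windows carry the name centromere edges. That name was not checked here, since no hg19 annotation of centromeres, repeats or genes was used. Centromeres are the chromosome sites on which kinetochores form for spindle attachment, and in human cells they are built on long arrays of alpha satellite DNA. Pericentromeric DNA flanks them and holds further satellite repeats. Assemblies of the age of hg19 show only part of these arrays and bridge the rest with gaps, so that reads from many near-identical copies can align to the few copies shown. Whether reads of such copies contributed to the members was not tested. Neither the base sequence nor the gene content of the windows was analysed here.

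Chromatin immunoprecipitation followed by sequencing (ChIP-seq) had been carried out in U2OS cells, an established osteosarcoma line, and in shTUBG U2OS cells, which stably express a short hairpin RNA against TUBG, the gene family that encodes γ-tubulin. Cells were asynchronous, or were harvested 3, 7 or 9 h after release from a double thymidine block, which holds cells at the start of S phase. U2OS chromatin, cut with micrococcal nuclease, was precipitated with antibodies to γ-tubulin (a nucleator of microtubules that is also found in the nucleus), PCNA (the sliding clamp of replicative polymerases), Mcm5 (a subunit of the replicative helicase) and FoxM1 (a transcription factor of the cell cycle). Only γ-tubulin and PCNA were precipitated from shTUBG U2OS. In all, 64 samples formed 32 pairs, and 8 of these pairs are input chromatin that was not used here. shTUBG U2OS is a line selected for the hairpin, and no line with a control hairpin is among the labelled samples, so that selection and loss of γ-tubulin cannot be told apart.

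Each list covered an antibody, a time and a line and was named for both samples of its group, so that no value below has a replicate error. Lists held 17 to 244 peaks. Their read depth is unknown, and whether depth shapes the differences between lists was not tested.

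The 19 lists with members were those of γ-tubulin and FoxM1 at every time in U2OS, of PCNA and Mcm5 in asynchronous, 3 h and 9 h U2OS, of γ-tubulin at 9 h in shTUBG U2OS, and of PCNA at every time in shTUBG U2OS. The windows of chromosomes 1, 7 and 19 held peaks in all 19 of these lists, and those of chromosomes 6 and 11 in 17. The 2 lists without peaks on chromosomes 6 and 11 were γ-tubulin at 9 h and PCNA at 7 h, both of shTUBG U2OS. Of the members, 19 lay on chromosome 1, 38 on chromosome 6, 72 on chromosome 7, 93 on chromosome 11 and 88 on chromosome 19. Members were 200 to 3378 bp wide, with a median of 360.5 bp.

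**Figure D1:**
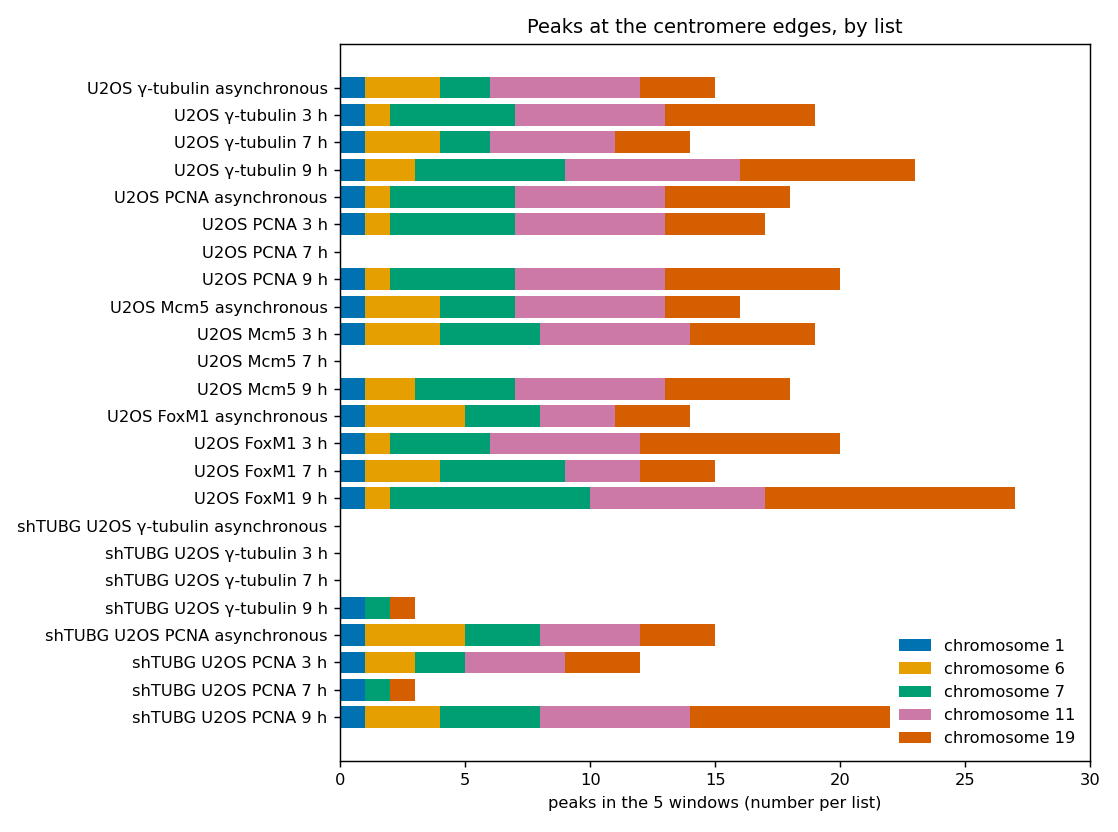
Number of peaks in the 5 windows (horizontal axis, peaks per list) for each of the 24 lists (vertical axis), stacked by chromosome. The list of FoxM1 at 9 h reached 27 peaks, and 5 lists have no bar because they held no peak in any window.

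The 5 windows differed in layout. Peaks that overlapped by at least 1 bp in any lists were merged into regions, of which there were 1 on chromosome 1, 1 on chromosome 6, 7 on chromosome 7, 7 on chromosome 11 and 8 on chromosome 19, or 24 in all. Of these regions, 16 were called for all 4 antibodies, 9 in 17 or more lists and 3 in a single list. For comparison, 19.6% of the 387 regions of all lists were called for all 4 antibodies, but the windows had been chosen for peaks shared between lists and nothing is read from that difference. Peaks outside the windows were distant. The nearest lay 151 kb below the first peak of chromosome 7, at chr7:61816150-61816385 in the list of γ-tubulin at 3 h in shTUBG U2OS, where it was a peak of score 27. The next nearest, on chromosome 19, was 2867 kb away.

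On chromosome 1, each of the 19 lists held exactly 1 peak, and all 19 fell in chr1:121484009-121485488. This was a compact site: the peak was 1086 to 1480 bp wide (1397 ± 85.7 bp, SD over 19 lists), and its start and end moved by at most 329 and 65 bp between lists. In γ-tubulin precipitates of U2OS it was 1385, 1454, 1384 and 1469 bp wide in asynchronous cells and at 3, 7 and 9 h. In PCNA precipitates of U2OS it was 1448, 1431 and 1431 bp wide in asynchronous, 3 h and 9 h cells. Antibody and time thus left its outline almost in place.

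The Mcm5 peak at this site was 1379, 1407 and 1420 bp wide in asynchronous, 3 h and 9 h U2OS. The FoxM1 peak was 1352, 1470, 1363 and 1480 bp wide in asynchronous cells and at 3, 7 and 9 h, the last being the widest of all. In shTUBG U2OS, the PCNA peak was 1392, 1388, 1086 and 1452 bp wide over the same times. The narrow peak at 7 h started at 121484338, whereas the other lists placed the start between 121484009 and 121484077. Its end, 121485423, lay close to the lowest end of the other lists, 121485426.

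Every peak has a score, a whole number that no source used here explains. It was therefore compared within a list, as a rank in which 1 is the highest score. Scores are also printed as listed. A highest score over lists is a description and no measure of a difference between antibodies, times or lines. The chromosome 1 peak ranked first in 15 of the 19 lists, within the first 3 in 18, and ninth in the list of FoxM1 in asynchronous cells. Its score in U2OS was 353, 721, 297 and 896 for γ-tubulin in asynchronous, 3 h, 7 h and 9 h cells. For PCNA it was 708, 780 and 944 in asynchronous, 3 h and 9 h cells, and 944 was the highest score of any member. Mcm5 gave 300, 421 and 525 at those 3 times, and FoxM1 131, 750, 235 and 897 in asynchronous, 3 h, 7 h and 9 h cells. In shTUBG U2OS, PCNA gave 382, 346, 168 and 822 over the 4 times and was ranked first at each of them. γ-tubulin at 9 h in that line gave 142, which was the highest score of its list of 67 peaks.

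Chromosome 6 held 1 stretch, chr6:58776238-58779615, that was called whole in some lists and in pieces in others. The stretch was 3378 bp long. It was a single peak of 3094 to 3378 bp in 6 lists, which were γ-tubulin at 3 h, PCNA in asynchronous, 3 h and 9 h cells and FoxM1 at 3 and 9 h, all of U2OS. In another 11 lists it was broken into 2 pieces (3 lists), 3 pieces (6 lists) or 4 pieces (2 lists). The lists with a single peak held 104 to 244 peaks in all and the lists with pieces 51 to 155, so that the ranges of list size overlapped.

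The breaks of the chromosome 6 stretch fell at overlapping places in some lists and at different places in others. In γ-tubulin precipitates of asynchronous U2OS the stretch was covered over 2351 bp in 3 pieces, with gaps of 594 bp (58776817 to 58777410) and 114 bp (58778002 to 58778115). For Mcm5 in asynchronous cells the gaps were 410 bp (58776853 to 58777262) and 380 bp (58777747 to 58778126). PCNA in asynchronous shTUBG U2OS had gaps of 497 bp (58776772 to 58777268), 390 bp (58777745 to 58778134) and 135 bp (58778927 to 58779061). The first and second gap of each of these 3 asynchronous lists thus overlapped those of the others. At 9 h this held in part. The gap at 58776881 to 58776935 for γ-tubulin in U2OS lay within a gap of PCNA in shTUBG U2OS, 58776870 to 58776936. It lay apart from that at 58777139 to 58777253 for Mcm5. PCNA at 3 h in shTUBG U2OS broke at 58778341 to 58779183. This gap took in the gap of 135 bp of PCNA in asynchronous shTUBG U2OS. It also took in a gap of FoxM1 in asynchronous U2OS and another of FoxM1 at 7 h. The list of PCNA at 3 h in shTUBG U2OS was the least complete, with 2 pieces that covered 414 bp. It also had the lowest best score on this chromosome, 48, and the highest was 237, for FoxM1 at 9 h, where the peak took in the whole stretch.

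**Figure D2:**
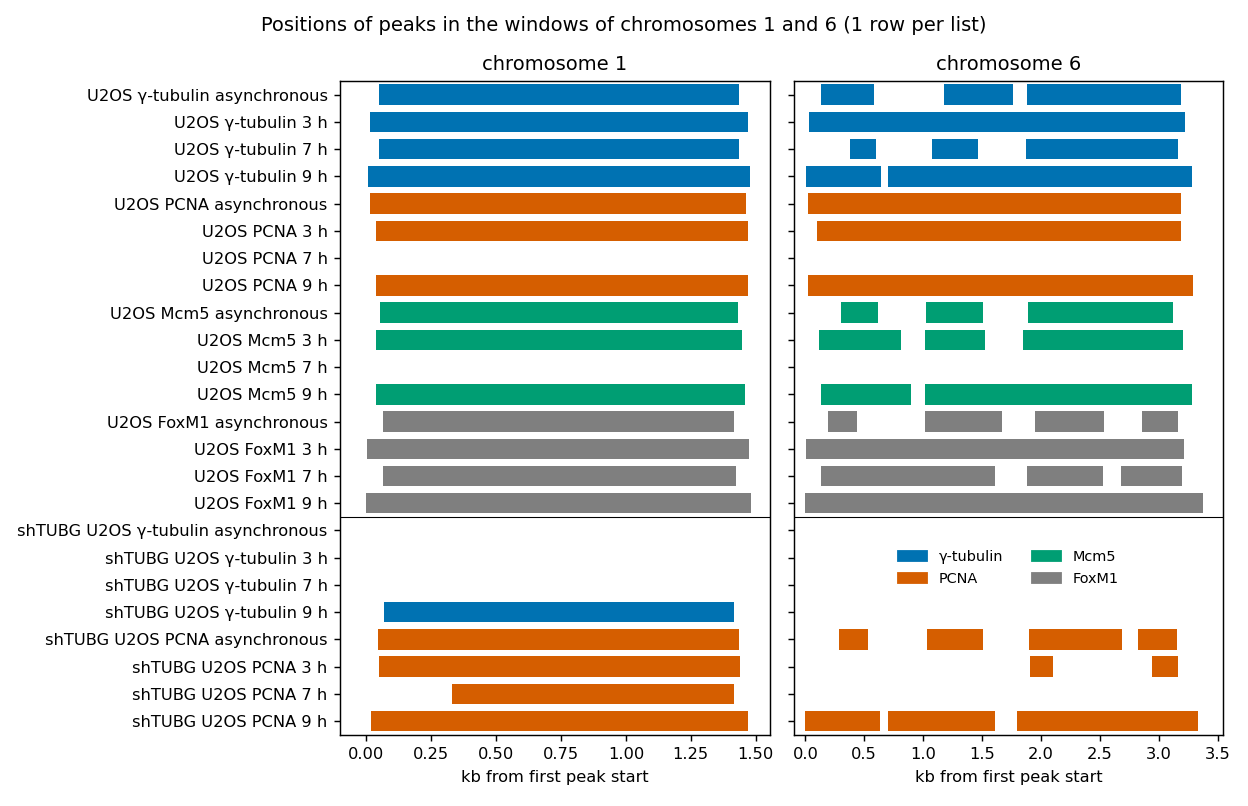
Positions of peaks on chromosomes 1 and 6 (horizontal axes, kb from the first peak start of the window) in each of the 24 lists (vertical axis), with bars drawn to scale and coloured by antibody and a line between U2OS above and shTUBG U2OS below. The chromosome 1 site is 1 bar in 19 lists, and the chromosome 6 stretch is 1 bar in 6 lists and 2 to 4 bars in 11.

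Chromosome 7 had a dominant site with weaker neighbours. The leading region, chr7:61968558-61969779, was called in all 19 lists as 1 peak of 787 to 1222 bp (1056 ± 112 bp, SD, n = 19 lists), and its centre varied with an SD of 19.8 bp. It scored 283, 507, 229 and 615 for γ-tubulin in asynchronous, 3 h, 7 h and 9 h U2OS, and 472, 560 and 667 for PCNA in asynchronous, 3 h and 9 h U2OS. Mcm5 gave 230, 357 and 383 in asynchronous, 3 h and 9 h cells, and FoxM1 125, 623, 225 and 764 in asynchronous, 3 h, 7 h and 9 h cells. PCNA in shTUBG U2OS gave 299, 296, 131 and 680 over the 4 times. The value of 764, from a peak that spans the whole leading region, was the highest on this chromosome. The rank within the list was between 2 and 12.

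Beside it lay chr7:61969999-61971292, called in 17 lists with more than 1 peak in some of them (25 peaks in all), and chr7:61967165-61968430, called in 14 lists (21 peaks). In the first of these, a peak of PCNA at 9 h in shTUBG U2OS, 61970098 to 61971292, joined places that were apart in the other lists. The lists without chr7:61967165-61968430 included γ-tubulin in asynchronous and 7 h U2OS, whereas PCNA, Mcm5 and FoxM1 had it in every U2OS list with members. A further region, chr7:61976107-61976443, was called in 4 lists, which were γ-tubulin, PCNA and FoxM1 at 9 h in U2OS and PCNA at 9 h in shTUBG U2OS. The other 3 regions of the window were called for FoxM1 at 9 h and in no other list. They were 200 to 219 bp wide, scored 88 to 120 and ranked 133 or lower in a list of 244 peaks.

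Chromosome 11 held a row of narrow peaks, in which a first, longer distance was followed by 4 shorter ones. The regions called in most lists were chr11:51579359-51579730 (17 lists), chr11:51586756-51587127 (17 lists) and chr11:51588795-51589190 (16 lists). Between and after them came chr11:51582696-51583051 (14 lists), chr11:51584748-51585077 (12 lists) and chr11:51590889-51591344 (15 lists). These 6 regions each held at most 1 peak per list, 202 to 452 bp wide. Another region, chr11:51590313-51590566, was called for γ-tubulin and FoxM1 at 9 h in U2OS.

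The centres of neighbouring peaks in the row were 3301 ± 20.6 bp apart at the first step from left to right (SD, n = 14 lists), then 2035 ± 12.1 bp (n = 12) and 2037 ± 21.9 bp (n = 12). The last 2 steps were 2048 ± 15.8 bp (n = 16) and 2116 ± 30.2 bp (n = 14). The first distance thus stood apart from the other 4, and the SDs were those of the same positions in different precipitates.

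All 6 regions of the row were called for Mcm5 in each of its 3 lists with members and for PCNA in each of its 3 lists of U2OS. In the Mcm5 list of 3 h the scores along the row lay between 100 and 186, and in that of 9 h between 95 and 218. The first region scored highest of the row in 9 of the 17 lists, which were those of γ-tubulin at 3 and 9 h, of PCNA in asynchronous, 3 h and 9 h U2OS and of FoxM1 at every time. In the Mcm5 lists it was chr11:51586756-51587127 that scored highest, at all 3 times. The highest score of the window was 342, for FoxM1 at 9 h in the first region.

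On chromosome 19, chr19:27731873-27732871 was called in all 19 lists, and chr19:27732985-27733460 and chr19:27738281-27738970 in 17 each. The peak at the left edge of the first of these was put into 2 classes of width, a longer and a shorter form. The classes were split at the largest gap in the sorted widths. It was 902 to 993 bp wide and ended between 27732786 and 27732871 in 9 lists, and it was 273 to 572 bp wide and ended between 27732200 and 27732460 in 10. The empty range between the classes follows from that split. The shorter form was not of a single length. In shTUBG U2OS it was 273 bp for γ-tubulin at 9 h and 357 bp for PCNA at 7 h, and elsewhere it was 522 to 572 bp. The longer form was found in lists of 104 to 244 peaks, of which 17 to 27 were members, and the shorter form in lists of 25 to 132 peaks, of which 3 to 19 were members.

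The longer form occurred at 3 and 9 h for γ-tubulin and FoxM1, in asynchronous, 3 h and 9 h cells for PCNA and at 9 h for Mcm5, all in U2OS, and at 9 h for PCNA in shTUBG U2OS. At 3 h the Mcm5 list held the shorter form, 564 bp wide, followed by a separate peak at chr19:27732580-27732779. For γ-tubulin in U2OS the width was 554, 922, 546 and 927 bp in asynchronous, 3 h, 7 h and 9 h cells, and for FoxM1 it was 525, 928, 528 and 937 bp. Both proteins thus had the longer form at the same times.

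The other 5 regions of the chromosome 19 window were called less often. chr19:27737206-27738206 was called in 10 lists, chr19:27736263-27736936 in 7, chr19:27733794-27734809 in 6, chr19:27740058-27740356 in 4 and chr19:27739317-27739623 in 2. The list of FoxM1 at 9 h held all 8 regions of the window, in 10 peaks. Its score of 692 at the leading region was the highest of the window.

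**Figure D3:**
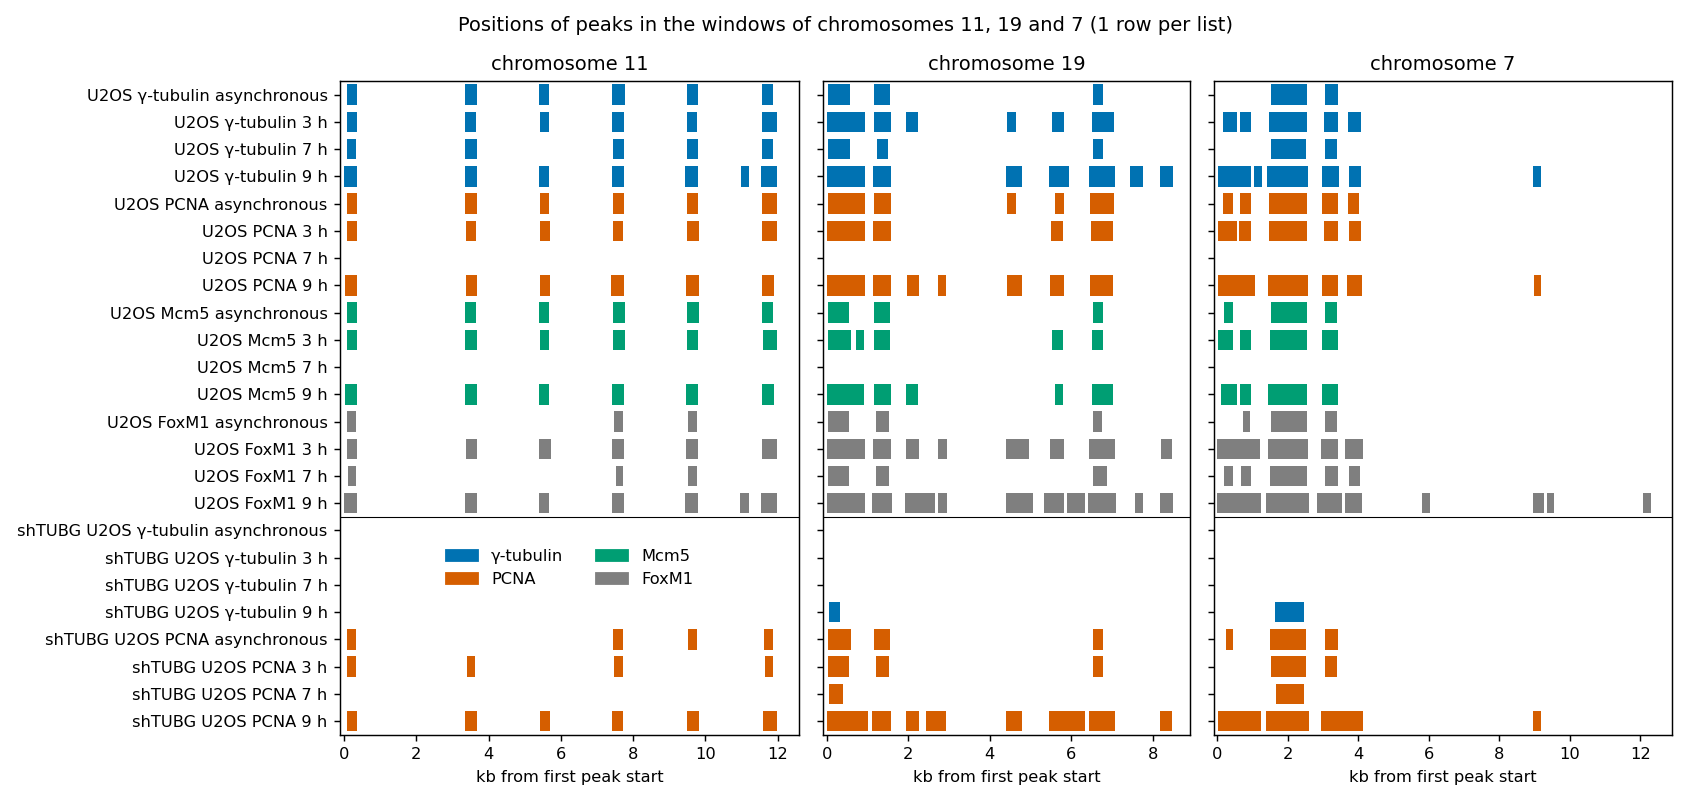
Positions of peaks on chromosomes 11, 19 and 7 (horizontal axes, kb from the first peak start of the window) in each of the 24 lists (vertical axis), with bars drawn to scale and coloured by antibody and a line between U2OS above and shTUBG U2OS below. On chromosome 11 the peaks stand in columns about 2035 to 2116 bp apart after a first distance of 3301 bp, and on chromosome 19 the first bar is either 273 to 572 bp or 902 to 993 bp wide.

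The windows kept a common order of score. In every one of the 17 lists with peaks in all 5 windows, the best peaks of chromosomes 1, 7 and 19 scored above the best peak of chromosome 11, which scored above the best peak of chromosome 6. Chromosome 1 was above chromosome 7 in 19 of 19 lists and above chromosome 19 in 18 of 19. The exception was FoxM1 in asynchronous cells, with scores of 131 on chromosome 1 and 132 on chromosome 19. Chromosome 7 was above chromosome 19 in 13 of 19 lists, so that these neighbours in the order did not keep their places. The median rank of the best peak was 1 for chromosome 1, 5 for chromosome 7, 6 for chromosome 19, 23 for chromosome 11 and 40 for chromosome 6. The best peak of chromosome 6 ranked between 30 and 77.

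**Figure D4:**
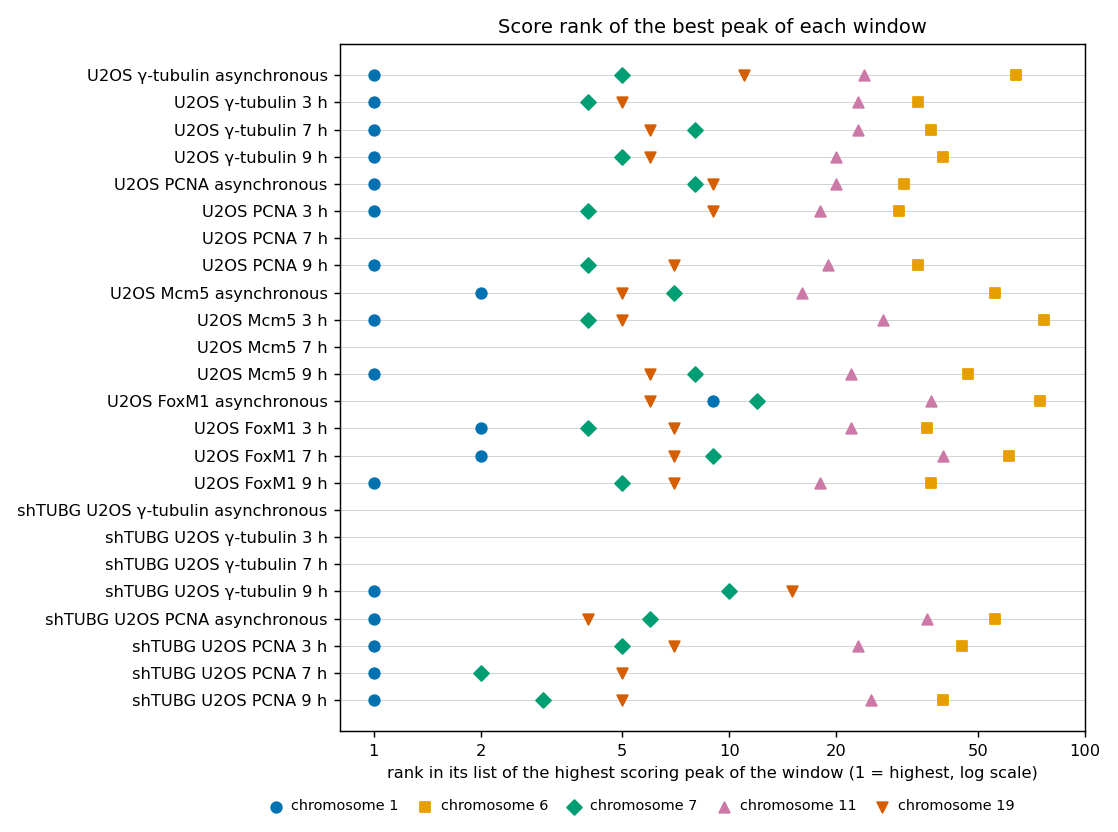
Rank by score of the best peak of each window in its list (horizontal axis, log scale, 1 is the highest score) for each of the 24 lists (vertical axis). Chromosome 1 has a median rank of 1, and chromosome 6 lies to the right of the other windows in the 17 lists that hold peaks in all 5.

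Against the other peaks of their list the members had higher scores in most lists. The median score of the members was above that of the other peaks in 17 of 19 lists, equal to it at 68 in the list of FoxM1 in asynchronous cells, and below it in the list of PCNA in asynchronous shTUBG U2OS, at 73 against 90. In all, 235 of the 310 members (75.8%) had at least the median score of the list they came from. By definition, at least as many peaks of any list lie at or above its median as below it. The median member scored at or above 72.3% of the peaks of its list, or 67.8% with only numbered chromosomes and X ranked. The windows had been chosen around peaks that lists share, so this excess was not tested.

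The number of members in U2OS differed between antibodies most of all at 7 h. In asynchronous, 3 h, 7 h and 9 h cells the windows held 15, 19, 14 and 23 peaks for γ-tubulin, 18, 17, 0 and 20 for PCNA, 16, 19, 0 and 18 for Mcm5, and 14, 20, 15 and 27 for FoxM1. The members made up 15.7% of the γ-tubulin peaks summed over time, 14.9% of the PCNA peaks, 14.4% of the Mcm5 peaks and 10.9% of the FoxM1 peaks. The smaller share of FoxM1 stood beside longer lists, 698 peaks against 453, 369 and 368. Summed over the 4 antibodies, asynchronous cells had 63 peaks in the windows, against 75, 29 and 88 at 3, 7 and 9 h. All 29 peaks at 7 h belonged to γ-tubulin and FoxM1.

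At 7 h, the PCNA list of U2OS held 17 peaks and all of them were on the mitochondrial genome, so that its lack of members was not particular to the windows. The Mcm5 list of 7 h held 29 peaks, 24 of them outside the mitochondrial genome, and 19 of these 24 were at positions also called in lists with members. In the same lists the clusters of peaks at chr10:42360689-42600571 (398 peaks of all lists) and chr2:92268981-92326127 (210 peaks) were called or missed together with the windows. All 19 lists with members had peaks in both clusters, and the 5 lists without members had none in either. Since 1 list held 1 value for each antibody and time, no change over time was tested.

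The study's definition of replication origins was applied to the Mcm5 members, with an overlap of at least 25% of both peaks. Mcm5 peaks that shared a site with PCNA at the same time were active origins by this definition, and the others dormant origins. Of the 53 Mcm5 members, 47 overlapped PCNA (88.7%, 95% Clopper-Pearson interval 77.0 to 95.7), 48 overlapped γ-tubulin (90.6%) and 43 overlapped FoxM1 (81.1%). Among the 296 Mcm5 peaks outside the windows and the mitochondrial genome, 162 overlapped PCNA (54.7%), 224 γ-tubulin (75.7%) and 151 FoxM1 (51.0%). The sets of times were unlike, since 24 of these 296 peaks and no Mcm5 member were of 7 h. At 7 h the PCNA list was wholly mitochondrial, so that 0 of the 24 could overlap PCNA. In asynchronous, 3 h and 9 h cells, 41 of 74, 54 of 109 and 67 of 89 peaks outside overlapped PCNA. The windows had been chosen around peaks that lists share, so this difference was not tested. The interval takes the peaks as independent, which peaks of the same region at different times are not. It may thus be too narrow, and nothing is concluded from it.

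Of the 47 active origins in the windows, 45 carried γ-tubulin and 41 carried FoxM1. Outside the windows and the mitochondrial genome it was 159 and 113 of 162, so that nearly all active origins carried γ-tubulin in both places. In asynchronous, 3 h and 9 h cells, 14 of 16, 16 of 19 and 17 of 18 Mcm5 members overlapped PCNA. All 3 Mcm5 peaks of chromosome 1, all 11 of chromosome 7 and all 18 of chromosome 11 did so. The 6 dormant origins were 5 of the 8 Mcm5 peaks of chromosome 6 and 1 of the 13 of chromosome 19. Each of the 6 touched a PCNA peak of that time by at least 1 bp, so that at this overlap no member was dormant. On chromosome 6 the PCNA lists held the stretch as a single peak where the Mcm5 lists held pieces of it. On chromosome 19 the dormant origin was the separate Mcm5 peak of 3 h beside the shorter form.

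To examine whether lowering γ-tubulin went with fewer peaks at the windows, both lines were compared at each time. The study refers to a delay of S phase reported for cells with lowered γ-tubulin. Lists of the same hour may thus differ in cell cycle phase, and the part of this was not tested. In U2OS, γ-tubulin had 15, 19, 14 and 23 peaks in asynchronous, 3 h, 7 h and 9 h cells, and in shTUBG U2OS it had 0, 0, 0 and 3. PCNA had 18, 17, 0 and 20 peaks in U2OS and 15, 12, 3 and 22 in shTUBG U2OS. The γ-tubulin values of the lines did not overlap, whereas those of PCNA did. The mean difference per time, shTUBG U2OS minus U2OS, was −17 peaks for γ-tubulin (lower at 4 of 4 times) and −0.75 for PCNA (lower at 2 of 4). The difference for γ-tubulin minus that for PCNA was −16.25 peaks per time. These differences are a description with no test, since the windows had been set around peaks of the same lists.

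**Figure D5:**
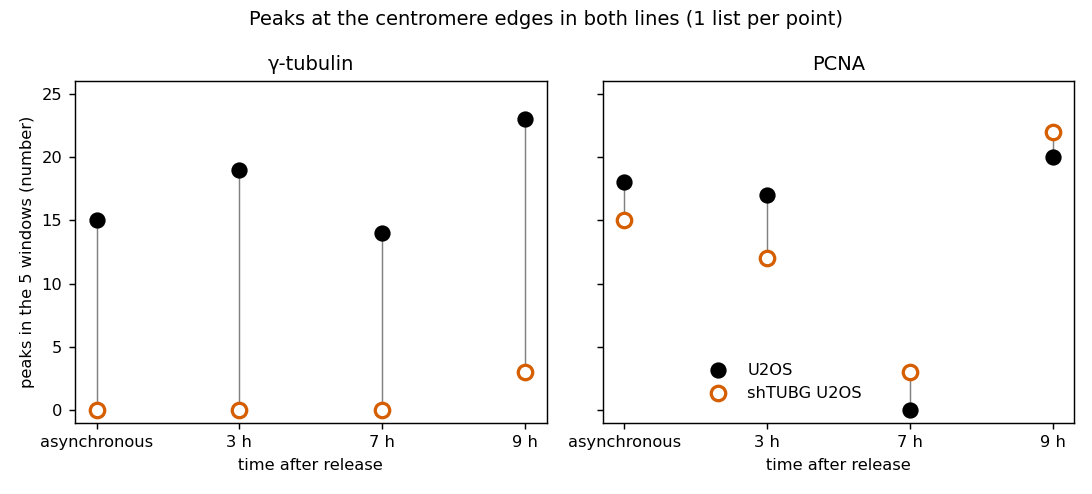
Number of peaks in the 5 windows (vertical axis) in U2OS (filled) and shTUBG U2OS (open) by time (horizontal axis), for γ-tubulin on the left and PCNA on the right, with 1 list per point and thus no error bars. γ-tubulin lies at 14 to 23 peaks in U2OS and 0 to 3 in shTUBG U2OS, and PCNA lies at 0 to 20 and 3 to 22.

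Fewer γ-tubulin peaks were called in shTUBG U2OS elsewhere too, at 3 of 4 times. Outside the windows and the mitochondrial genome, the γ-tubulin lists held 82, 101, 56 and 127 peaks in U2OS and 86, 25, 26 and 46 in shTUBG U2OS. The asynchronous lists were thus close in number outside the windows, 82 and 86, while the windows held 15 and 0. This was not particular to the windows. That shTUBG U2OS list also held no peak in the clusters of chromosomes 10 and 2, whereas the U2OS list had peaks in both. Of the 86 peaks outside the mitochondrial genome in that shTUBG U2OS list, 38 were at positions called in lists with members. The share of the γ-tubulin list that lay in the windows was 14.7, 15.4, 18.7 and 15.0% in U2OS and 0, 0, 0 and 4.48% in shTUBG U2OS, a mean difference of −14.8 percentage points.

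Counted by region, 21 regions of the windows were called for γ-tubulin in U2OS, and 18 of them (85.7%) had no γ-tubulin peak in shTUBG U2OS. Over all 138 regions called for γ-tubulin in U2OS the same was true of 75.4%, so that most regions elsewhere had none either. For PCNA, all 18 regions of the windows called in U2OS were also called in shTUBG U2OS, where 6.59% of all 91 PCNA regions of U2OS were not.

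The 3 γ-tubulin peaks that shTUBG U2OS kept were all at 9 h and fell in the leading regions of chromosomes 1, 7 and 19. They were chr1:121484077-121485426, chr7:61968800-61969613 and chr19:27731928-27732200. Each was narrower than the γ-tubulin peak of U2OS at 9 h, at 1350 against 1469 bp, 814 against 1176 bp and 273 against 927 bp. They scored 142, 115 and 106 and ranked 1, 10 and 15 in their list. The list of PCNA at 7 h in shTUBG U2OS also held 3 members, in the same 3 regions, and these were the regions called in all 19 lists with members.

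PCNA peaks in the windows had different widths in both lines at some times. In asynchronous cells, all 15 PCNA peaks of shTUBG U2OS shared at least 1 bp with one of U2OS, and 11 pairs overlapped by at least 25% of both. In all 11 pairs the shTUBG U2OS peak was the narrower, by a median of 83 bp. At 3 h, where 12 of 12 peaks shared at least 1 bp, it was narrower in 10 of 10 pairs, by a median of 79 bp. At 9 h it was narrower in 6 of 21 pairs, with a median that was 32 bp greater. Each count came from 1 list per line, so its pairs are not replicates, and pairs outside the windows were not compared. The whole PCNA lists were shorter in shTUBG U2OS at the first 2 of these times, with 87 against 118 peaks and 51 against 104, and longer at 9 h, with 155 against 130. The part of depth in this was not tested.

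By window, PCNA peaks summed over time numbered 3 in U2OS and 4 in shTUBG U2OS on chromosome 1, 3 and 9 on chromosome 6, 15 and 10 on chromosome 7, 18 and 14 on chromosome 11, and 16 and 15 on chromosome 19. On chromosome 6 the larger number came with broken stretches, since PCNA there was 1 peak of 3094 to 3267 bp in each U2OS list and 4, 2 and 3 pieces in asynchronous, 3 h and 9 h shTUBG U2OS. The pieces covered 1847, 414 and 3069 bp. The share of the PCNA list in the windows was 15.3, 16.3, 0 and 15.4% in U2OS and 17.2, 23.5, 12 and 14.2% in shTUBG U2OS, a mean difference of 4.99 percentage points (higher at 3 of 4 times). This value rested on the choice of peaks and times. It was 0.456 points when peaks below the median score were left out, where 3 of 4 times were lower. It was 2.66 without 7 h, when the PCNA list of U2OS was wholly mitochondrial. Outside the mitochondrial genome it was 1.94, a mean that also lacked 7 h and was higher at 2 of 3 times.

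Of the 310 members, none shared both its start and its end with a peak of another list. A start was shared with another list by 56 members and an end by 57. No member was thus an exact copy of an interval in another list. Whether lists shared input in peak calling is not known, so that the independence of the lists was not tested.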

How the data were processed

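ChIP-seq was performed by the authors on 64 samples, and 24 peak lists in BED format were deposited, each for both samples of a group. Per the submitters' processing notes, Bowtie2 2.1.0, SAMtools, MACS2 and the build hg19 were used. How samples and input were combined, and how duplicates and blacklisted regions were treated, is not given in the sources used here. The score deposited by the authors is a whole number of unstated meaning. It was ranked within lists and otherwise printed as listed. Starts were raised by 1 to count from 1.

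Scripts used Python 3.11.15, numpy 2.4.6, scipy 1.17.1 and matplotlib 3.10.9. An overlap had to cover at least 25% of both peaks, and regions were merged at 1 bp. The lines were compared at the 4 times in 5 comparisons. The exact sign-flip permutation tests planned for them are not reported, since the windows were chosen on these peaks and 4 times cannot give a p under 0.05. The windows and comparisons were chosen with earlier results of these data known. Regions were named by a rule: in each window the 3 called in the most lists, all those called for γ-tubulin in shTUBG U2OS and the highest score. Others were named after their values were seen, and break points, distances, widths and list sizes were added then. Alternatives were the median score, merging within 1000 bp, windows widened by 100 kb, other overlaps, mitochondrial peaks left out, and each time or window left out.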

Additional observations from a re-analysis of the deposited data

Results flagged for a closer look

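The difference in PCNA peaks in the windows, shTUBG U2OS minus U2OS, had different signs by time. It was −3 peaks in asynchronous cells and −5 at 3 h, against 3 at 7 h and 2 at 9 h. Each value is the difference of 2 lists, and the difference between times was not tested.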

How the results depend on the processing

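No paired analysis was possible because replicate numbers cannot pair samples that share a single list. Lists were matched by time only, and no replicate could be left out or used as a block. Of 110 alternatives for 10 results, 13 could not change the value, since widening the windows by 100 kb, or a 1 bp overlap with them, reached no further peak and no Mcm5 member was of 7 h. The γ-tubulin difference between lines ranged from −18 to −10.25 peaks. The difference in the share of the PCNA list, 4.99 percentage points, ranged from 0.456 to 7.06. The PCNA difference of −0.75 peaks became 0.25 with peaks within 1000 bp merged, 0.5 without chromosome 7, 0.25 without chromosome 11, 0.667 without 3 h and 0 without asynchronous cells, which leaves it no direction. Merging peaks within 1000 bp left 14 regions of 24. The share of Mcm5 members with PCNA was 88.7%, against 100% with an overlap of 1 bp and 97.8% without chromosome 6. The share with FoxM1, 81.1%, was 92.5% with 1 bp and 66.0% with an overlap of 50% of both peaks. Depth is unknown, so a peak missing from a list may have been below its limit of detection.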
